A study of Mus musculus with 30 samples.

Results

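The genes described here encode enzymes that cleave esters or that oxidise and conjugate foreign compounds: the carboxylesterases (Ces), the cytochromes P450 of families 2 to 4 (Cyp), the glutathione transferases (Gst), the UDP-glucuronosyltransferases (Ugt1a, Ugt2a and Ugt2b) and the sulfotransferases (Sult). They were chosen by gene name alone, with pseudogenes left out. The deposited table held 154 such genes among 57490 gene rows, and 35 of them reached a mean of 1 FPKM in at least 1 of the 6 groups. FPKM is fragments scaled to transcript length and to library size, so levels of different genes can be set side by side on this scale. The cells were 3T3-L1, an established mouse fibroblast line that can differentiate into fat cells when given adipogenic agents. All groups, the controls included, were kept in a differentiation medium with serum, insulin and the phosphodiesterase inhibitor 3-isobutyl-1-methylxanthine. Dexamethasone was named only as a positive control of the assay. The treated groups received the herbicide quizalofop-p-ethyl (QpE) at 50 µM and the control groups did not, and both were sampled at times labelled 6 h, 24 h and 12 days, with 5 cultures each, 30 libraries in all. The last group keeps its labelled time of 12 days, although the treatment protocol lists fewer days of medium changes. As a model, the line is fibroblast-derived, not liver, and was grown in multiwell plates. No source used here says whether replicates came from separate thaws, so the p-values measure the spread between these cultures, which may be technical.

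Foreign compounds are handled in steps. Carboxylesterases of the endoplasmic reticulum split ester bonds with a catalytic serine, and cytochromes P450 insert oxygen with electrons from the P450 reductase Por. Transferases then attach glutathione, glucuronic acid or sulfate, which makes the product soluble and ready for export. Quizalofop-p-ethyl is itself an ethyl ester that plants hydrolyse to the herbicidal acid. In fat cells several of these enzymes also act on the cell's own molecules: Ces1d and Ces1f hydrolyse stored lipid, and Gsta4 conjugates reactive aldehydes from oxidised fatty acids. By its title, the study concerned adipogenesis in 3T3-L1 cells given the herbicide.

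Library totals ran from 413502 to 500489 FPKM, and the approximate depth, estimated from steps in the low values, from 9520000 to 17460000 fragments. Cultures with replicate numbers 3 and 4 stood apart from numbers 1, 2 and 5 on the first principal component of all tested genes at 12 days, which held 34.1% of the variance, in both arms. At 12 days these replicates had less Adiponectin transcript, with 159 to 390 FPKM of Adipoq over both arms in numbers 3 and 4, against 587 to 1154 FPKM in numbers 1, 2 and 5. For some of the genes the QpE difference is also given within each set below. Such a test compares only 3 cultures with 3, or 2 with 2, in sets picked from these same data. Whether the QpE difference itself differed between the sets was not tested. Whether replicate numbers paired the arms was checked from the data, and at 12 days they were taken to, so a fit with the replicate number as a block stands beside the plain fit where it changes a call. That check could not separate pairing by number from the split between the 2 sets. Pairs below are cultures of the same number.

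The glutathione transferases dominated the set. Their 23 genes summed to 811 ± 177 FPKM in QpE cultures and 771 ± 162 FPKM in control cultures at 12 days (SD, n = 5 each). Of the 35 genes at 1 FPKM or more, 17 were glutathione transferases, 9 cytochromes P450, 4 carboxylesterases, 4 UDP-glucuronosyltransferases and 1 a sulfotransferase. The 10 highest, by largest group mean, were Gstp1, Gsta4, Gsto1, Gstm1, Ces1f, Gstz1, Ugt1a6b, Gstm2, Cyp2f2 and Ces1d, in that order, between 261 and 56.0 FPKM. The other 119 genes stayed under 1 FPKM in every group mean, and 46 of them were listed at 0 in all 30 libraries. They comprised 63 of 72 cytochromes P450, 20 of 21 sulfotransferases, 15 of 19 carboxylesterases, 15 of 19 UDP-glucuronosyltransferases and 6 of 23 glutathione transferases. Just inside the limit of 1 FPKM were Gsta2 at 1.07, Cyp2j9 at 1.17 and Gstm3 at 1.29 FPKM in their highest group mean, and just outside were Gstt2 at 0.448, Gstm4 at 0.378 and Ugt1a1 at 0.371 FPKM. The low-value filter, 1 FPKM in 5 of the 30 libraries, passed 34 of the 35. Gsta2 reached that level in 3 libraries and was not tested.

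**Figure D1:**
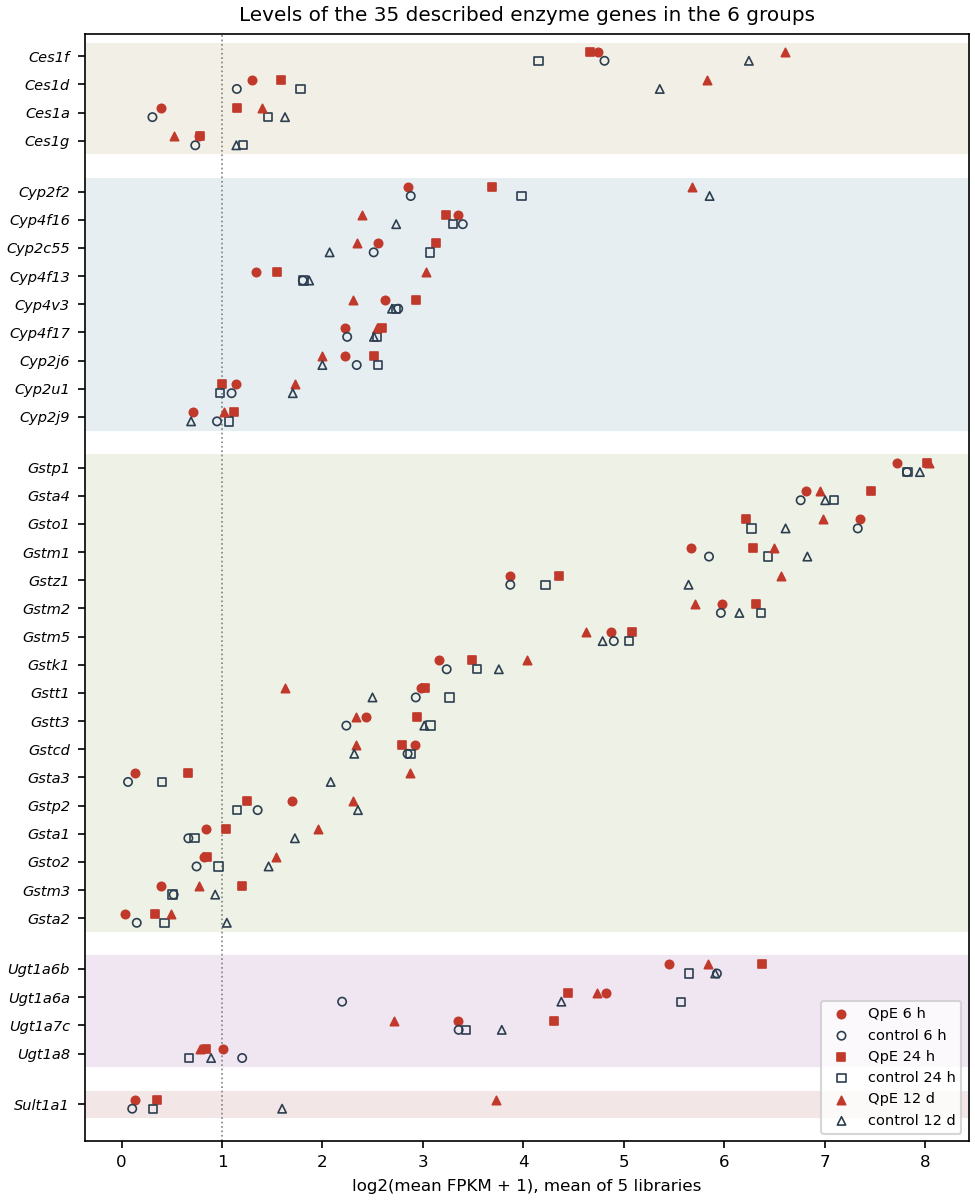
Mean level of each of the 35 genes in the 6 groups, as log2(mean FPKM + 1) on the horizontal axis, with filled red symbols for QpE and open dark symbols for control at 6 h (circles), 24 h (squares) and 12 days (triangles). Shaded bands mark the families from carboxylesterases at the top to the sulfotransferase at the bottom, and the dotted line is 1 FPKM. Gstp1, Gsta4 and Gsto1 lie farthest right, and the 12-day triangles of Ces1d and Sult1a1 lie far to the right of their 6 h and 24 h symbols.

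QpE changed none of these genes detectably at 6 h or 24 h and 1 of them at 12 days. Values were compared as log2(FPKM + 1) with limma, and a call needs a Benjamini-Hochberg adjusted p under 0.05 over all 14626 tested gene rows. At 6 h, 0 of 34 were called, against 0.00684% of all rows, and 1 had an unadjusted p under 0.05, against 2.75% of all rows. At 24 h, 0 were called, against 0% of all rows, and 4 had an unadjusted p under 0.05, against 8.79% of all rows. At 12 days, 0 were called higher, against 5.06% of all rows, and 1, Gstt1, was called lower, against 7.17% of all rows. Counting unadjusted p under 0.05, 4 were higher and 4 lower at 12 days, against 27.8% of all rows in either direction, so these counts did not stand out. The groups were free of overlap for 0 genes on the higher side, against 6% of all rows, and for 1 on the lower side, against 8.26%. With the replicate block at 12 days, 5 were called higher (Sult1a1, Gstz1, Gsto1, Ces1d and Cyp4f13), against 8.77% of all rows, and 2 lower (Gstt3 and Ces1g), against 10.3% of all rows. The median log2 difference at 12 days was 0.012 over the 34 and -0.0018 over all tested rows. Ces1g, Cyp4f13, Gstt3 and Sult1a1 are given in full below because of their calls with the block, a choice made after their values were seen.

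**Figure D2:**
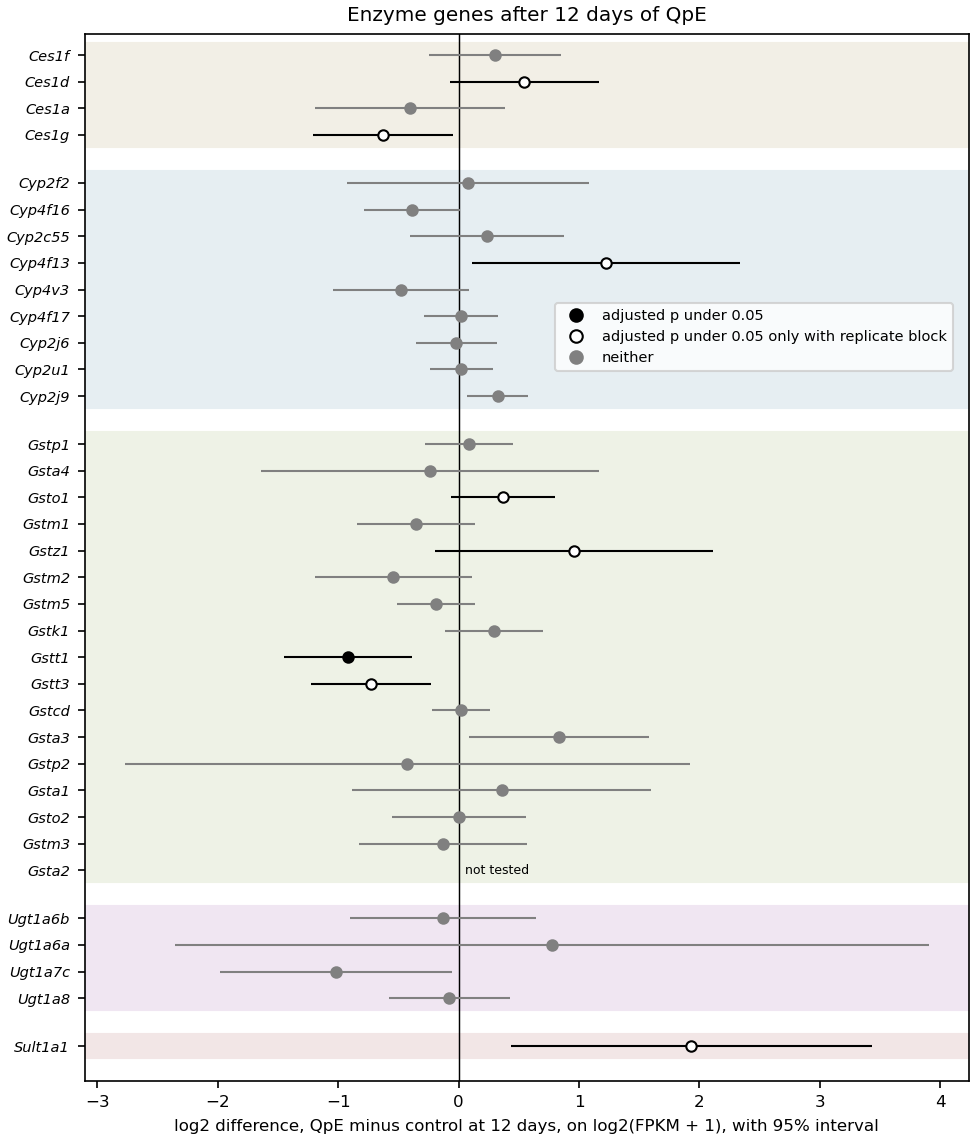
Log2 difference on the log2(FPKM + 1) scale, QpE minus control at 12 days, with its 95% interval from limma (5 libraries per arm), for each gene grouped by family. Gstt1 (filled black) passed an adjusted p of 0.05 at -0.92, the 7 genes in open circles passed it only with the replicate block, and the grey genes passed neither.

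The 4 carboxylesterases at 1 FPKM or more lie in 1 cluster on chromosome 8 (GRCm38) and all read from the minus strand. Ces1b, Ces1c and Ces1e, all under 1 FPKM, lie among them. The 4 are Ces1a at chr8:93020214-93048192, Ces1d at chr8:93166068-93197838, Ces1f at chr8:93256236-93279747 and Ces1g at chr8:93302369-93337308. The bases that encode the ester-cleaving site are shown because these neighbours are similar in sequence and their FPKM depend on reads being told apart. Each line is 78 bases of the coding strand of the GENCODE vM21 transcript, with the 6 codons that hold the catalytic serine in capitals:
Ces1a: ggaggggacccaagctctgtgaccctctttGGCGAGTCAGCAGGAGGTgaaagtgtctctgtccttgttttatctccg
Ces1d: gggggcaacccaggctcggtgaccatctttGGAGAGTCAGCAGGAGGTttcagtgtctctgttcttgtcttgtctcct
Ces1f: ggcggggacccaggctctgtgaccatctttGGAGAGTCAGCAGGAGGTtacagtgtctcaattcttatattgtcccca
Ces1g: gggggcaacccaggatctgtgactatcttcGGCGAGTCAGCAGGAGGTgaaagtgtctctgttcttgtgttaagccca
Between pairs of these genes the stretch differed at 11 to 16 of 78 bases, fewest between Ces1d and Ces1f. None of the 4 main transcripts shared a run of 75 bases with a transcript of another gene.

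Ces1d, a lipid hydrolase of the endoplasmic reticulum, and Ces1f, a related esterase, were low or moderate early and high at 12 days in both arms. Ces1d had 71.0, 60.04, 43.5, 44.0 and 61.2 FPKM in QpE cultures 1 to 5 at 12 days, against 51.8, 49.5, 25.7, 20.7 and 52.5 FPKM in control cultures 1 to 5. The arms overlapped, yet QpE was higher within each of the 5 replicate numbers, and replicates 3 and 4 were the lowest in each arm. Its log2 difference was 0.55 ± 0.28 (SE, adjusted p = 0.235), and the adjusted p was 0.0376 with the block. Within replicates 1, 2 and 5 it was 0.31 (adjusted p = 0.0928), and within 3 and 4 it was 0.90 (adjusted p = 0.0413).

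Ces1f had 78.5, 72.9, 132, 137 and 59.8 FPKM in QpE cultures at 12 days, against 62.0, 66.3, 89.9, 95.2 and 61.0 FPKM in control cultures. Here replicates 3 and 4 were the highest in each arm, the reverse of Ces1d. The difference on the log2 scale came to 0.30 ± 0.25 (SE, adjusted p = 0.467, and 0.0900 with the block), with 4 of 5 pairs higher in QpE. Within replicates 1, 2 and 5 it was 0.15 (adjusted p = 0.448), and within 3 and 4 it was 0.54 (adjusted p = 0.0395). Unnamed transcripts of the same locus supplied 22.8% of the Ces1f level.

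The other 2 carboxylesterases stayed low. Ces1g, an esterase known from liver, had 0.225, 0.0354, 1.08, 0.820 and 0.0338 FPKM in QpE cultures at 12 days, against 0.745, 0.735, 1.96, 1.92 and 0.678 FPKM in control cultures. QpE was lower in every pair, with a log2 difference of -0.63 ± 0.26 (SE, adjusted p = 0.148; adjusted p = 0.0195 with the block). At 24 h Ces1g averaged 0.714 ± 0.107 FPKM in QpE cultures and 1.31 ± 0.259 FPKM in control cultures (SD, n = 5 each). The 24 h groups did not overlap, with a log2 difference of -0.42 ± 0.10 that did not pass the adjustment (adjusted p = 0.360). Ces1a averaged 1.63 ± 1.57 FPKM in QpE cultures and 2.09 ± 0.650 FPKM in control cultures at 12 days (adjusted p = 0.503).

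**Figure D3:**
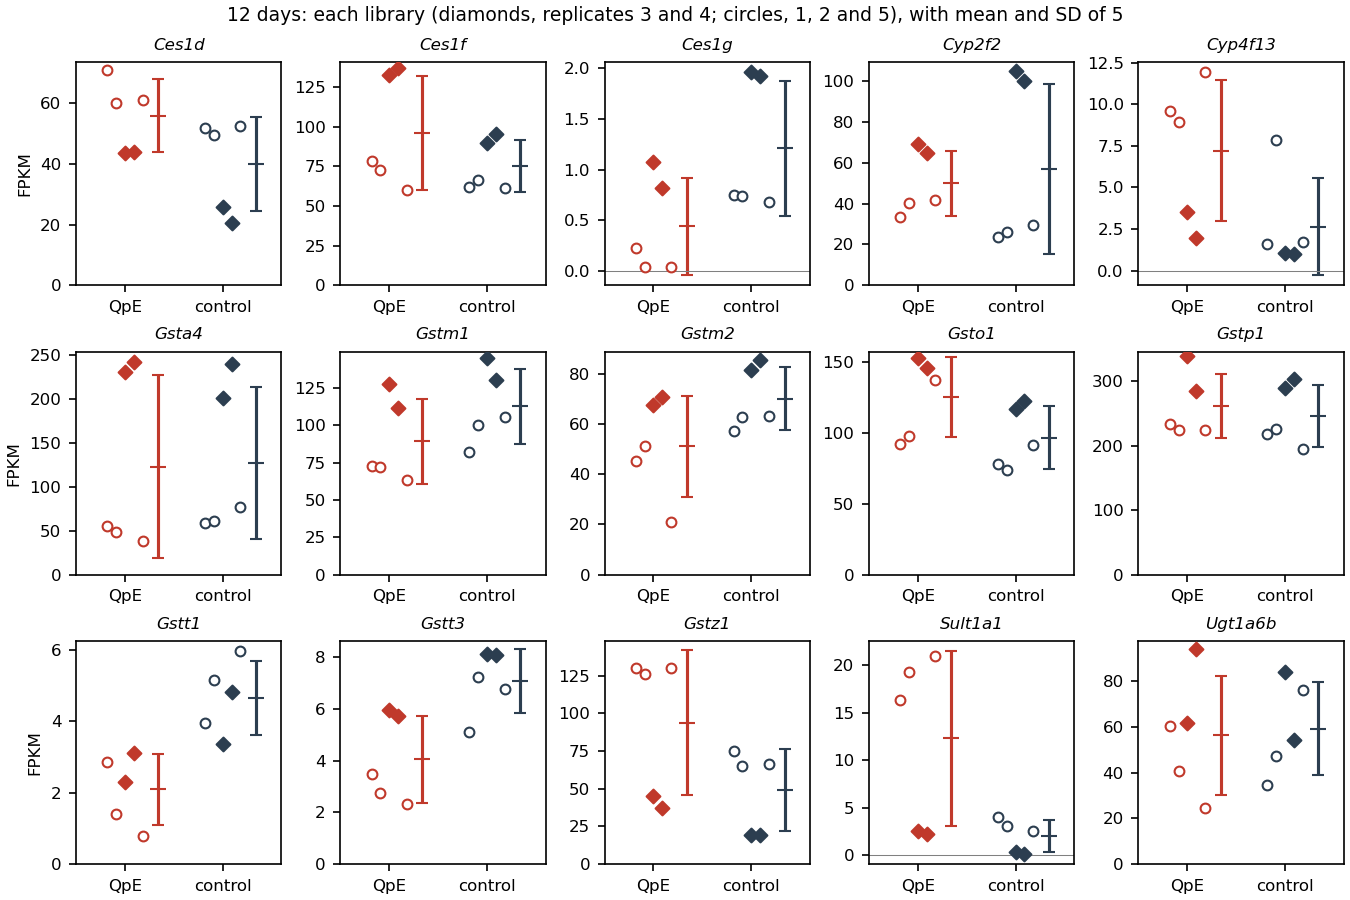
FPKM of the 15 genes given in full at 12 days, QpE left and control right in each panel, with diamonds for replicates 3 and 4, circles for replicates 1, 2 and 5, and a bar for the mean and SD of 5 libraries. The panels of Gsta4, Cyp2f2 and Ces1f show the diamonds above the circles in both arms, those of Ces1d and Gstz1 show them below, and the panel of Gstt1 shows all QpE points below all control points.

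Among the 9 cytochromes P450, Cyp2f2 was the most abundant. This enzyme is known for oxidising naphthalene in the mouse lung. It had 33.7, 40.4, 69.3, 65.0 and 42.0 FPKM in QpE cultures at 12 days, against 23.7, 26.3, 105, 100 and 29.4 FPKM in control cultures. Replicates 3 and 4 were highest in both arms, and their control values were 3 or more times those of the other controls, so the arms crossed. Over all cultures the log2 difference was 0.08 ± 0.45 (SE, adjusted p = 0.931). It was 0.53 within replicates 1, 2 and 5 (adjusted p = 0.0704) and -0.60 within replicates 3 and 4 (adjusted p = 0.0368). The estimates had opposite signs, but the second compares only 2 cultures with 2, and a difference between the sets was not tested.

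Cyp4f13 belongs to the subfamily that hydroxylates fatty acids and leukotrienes at the far end of the chain. Its level was 9.61, 8.93, 3.54, 1.98 and 11.9 FPKM in QpE cultures at 12 days, against 1.61, 7.83, 1.09, 0.994 and 1.73 FPKM in control cultures. Control culture 2 lay with the QpE cultures and far from the other controls. On the log2 scale QpE minus control was 1.23 ± 0.50 (SE, adjusted p = 0.141; adjusted p = 0.0460 with the block), higher in 5 of 5 pairs. Its locus holds Cyp4f14 too, and 4.76 FPKM on average sat in unnamed transcripts there that could not be given to either gene.

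The remaining P450 genes were between 0.616 and 9.54 FPKM in every group mean, and none was called with QpE. Cyp4f16 and Cyp4f17, of the same subfamily, averaged 4.26 ± 1.41 and 4.81 ± 0.904 FPKM in QpE cultures at 12 days, against 5.65 ± 0.293 and 4.71 ± 0.729 FPKM in controls. Cyp2j6 and Cyp2j9, of a subfamily that makes epoxides from arachidonic acid, averaged 2.98 ± 0.798 and 1.03 ± 0.219 FPKM in QpE cultures, against 3.00 ± 0.428 and 0.616 ± 0.123 FPKM in controls. Cyp2j9 had an unadjusted p of 0.0172 and an adjusted p of 0.0919. Cyp2u1, a fatty acid hydroxylase, averaged 2.30 ± 0.298 FPKM in QpE cultures and 2.26 ± 0.362 FPKM in controls, and Cyp4v3, a relative of the human fatty acid hydroxylase CYP4V2, averaged 3.94 ± 1.84 FPKM and 5.47 ± 0.476 FPKM. The row of Cyp2c55 averaged 4.09 ± 1.87 FPKM in QpE cultures and 3.20 ± 1.15 FPKM in controls at 12 days. Unnamed transcripts of its locus supplied 98.8% of it.

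Of the theta-class glutathione transferases, Gstt1 fell with QpE and Gstt3 passed the test only with the block. Gstt1, which conjugates small halogenated molecules and lies at chr10:75783813-75798584 on the minus strand, had 2.87, 1.40, 2.30, 3.12 and 0.785 FPKM in QpE cultures at 12 days, against 3.94, 5.16, 3.35, 4.82 and 5.98 FPKM in control cultures. The arms did not overlap. Gstt1 fell by 0.92 ± 0.24 in log2 units (SE; adjusted p = 0.0352), while the block gave an adjusted p of 0.0590. Leaving out QpE culture 2 or 3, or control culture 1, 2, 4 or 5, raised the adjusted p to between 0.0554 and 0.0810, with log2 differences between -0.96 and -0.83. Within replicates 1, 2 and 5 the difference was -1.23 (adjusted p = 0.0788) and within 3 and 4 it was -0.45 (adjusted p = 0.275).

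Its neighbour Gstt3, at chr10:75774115-75781414 on the same strand, had 3.48, 2.74, 5.96, 5.73 and 2.33 FPKM in QpE cultures at 12 days, against 5.12, 7.25, 8.14, 8.10 and 6.78 FPKM in control cultures. QpE was lower in each of the 5 pairs, although the highest QpE values exceeded the lowest control value. This amounted to a log2 difference of -0.73 ± 0.23 (SE, adjusted p = 0.0608; adjusted p = 0.0319 with the block). Of its transcript's 75-base runs, 24.97% also occur in the overlapping gene model Gm20441, so reads could be divided between them.

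Gstz1, the maleylacetoacetate isomerase of tyrosine breakdown, at chr12:87147165-87164723, went the other way. It had 130, 126, 45.5, 37.1 and 130 FPKM in QpE cultures at 12 days, against 75.0, 65.2, 19.7, 19.1 and 66.3 FPKM in control cultures. Within each pair QpE was higher, and replicates 3 and 4 were the lowest of each arm. QpE minus control was 0.96 ± 0.52 on the log2 scale (SE; adjusted p = 0.267; adjusted p = 0.0160 with the block). It was 0.90 within replicates 1, 2 and 5 (adjusted p = 0.0267) and 1.05 within 3 and 4 (adjusted p = 0.0361). With only the transcript most abundant over all 30 libraries, which held 51.6% of the level over them, the difference was -0.12. At 12 days that transcript averaged 24.6 FPKM in QpE cultures and 24.4 FPKM in controls. A shorter Ensembl transcript of the gene averaged 57.1 FPKM in QpE cultures and 22.5 FPKM in controls.

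Gsto1, an omega-class enzyme that reduces dehydroascorbate, had 92.5, 97.9, 153, 146 and 138 FPKM in QpE cultures at 12 days, against 78.5, 74.2, 117, 122 and 91.3 FPKM in control cultures. QpE was higher in 5 of 5 pairs and the arms overlapped. The log2 difference was 0.37 ± 0.19 (SE, adjusted p = 0.250; adjusted p = 0.0254 with the block). Its neighbour Gsto2 averaged 1.90 ± 1.10 FPKM in QpE cultures and 1.76 ± 0.476 FPKM in controls.

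The mu-class genes Gstm1 and Gstm2 were lower with QpE in all 5 pairs but were called in neither fit. Gstm1 had 72.5, 71.9, 128, 111 and 63.4 FPKM in QpE cultures at 12 days, against 82.2, 100, 145, 130 and 106 FPKM in control cultures. The log2 difference was -0.36 ± 0.22 (SE, adjusted p = 0.331; adjusted p = 0.0556 with the block), but 0.43 with only the most abundant transcript. Gstm2 had 45.2, 51.1, 67.7, 70.8 and 20.8 FPKM in QpE cultures, against 57.4, 62.8, 81.4, 85.6 and 63.2 FPKM in control cultures, a log2 difference of -0.54 ± 0.29 (SE, adjusted p = 0.264; adjusted p = 0.116 with the block). The arms overlapped for both genes. Gstm5 averaged 23.7 ± 5.48 FPKM in QpE cultures and 26.7 ± 2.57 FPKM in controls, and Gstm3 averaged 0.705 ± 0.533 FPKM and 0.909 ± 0.779 FPKM.

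Gstp1, the pi-class enzyme and the most abundant of all 154, was not called. It had 233.7, 225, 338, 285 and 224 FPKM in QpE cultures at 12 days, against 217, 226, 290, 303 and 194 FPKM in control cultures, a log2 difference of 0.09 ± 0.17 (SE, adjusted p = 0.771). The 95% interval of the difference ran from -0.28 to 0.45. Its close copy Gstp2 averaged 3.92 ± 8.77 FPKM in QpE cultures and 4.11 ± 7.27 FPKM in controls. The copies share 57.7% of the 75-base runs of Gstp1, and 67.0 FPKM of their common locus on average sat in unnamed transcripts, so the division between them is uncertain. For the whole locus, a sum added after seeing the data, the log2 difference was 0.11 ± 0.18 (adjusted p = 0.723).

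A further pair of glutathione transferases were higher in all 5 pairs without a call. Gstk1, of mitochondria and peroxisomes, averaged 15.4 ± 2.92 FPKM in QpE cultures and 12.5 ± 3.05 FPKM in controls (log2 difference 0.29, adjusted p = 0.339; adjusted p = 0.0542 with the block). Gsta3, an alpha-class enzyme whose human relative also isomerises steroids, averaged 6.31 ± 2.51 FPKM in QpE cultures and 3.23 ± 1.78 FPKM in controls (log2 difference 0.83, adjusted p = 0.135; adjusted p = 0.0515 with the block). Gstcd, named for its transferase-like domain, averaged 4.06 ± 0.508 FPKM and 3.98 ± 0.416 FPKM. The alpha genes Gsta1 and Gsta2 averaged 2.87 ± 2.37 and 0.404 ± 0.452 FPKM in QpE cultures, against 2.31 ± 2.49 and 1.07 ± 0.976 FPKM in controls. For Gsta1, 86.3% of the 75-base runs recur in other genes, most of them in Gm3776 (76.15%).

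Gsta4, which conjugates 4-hydroxynonenal, a product of lipid peroxidation, divided the cultures by replicate number and not by arm. It had 55.0, 48.6, 230, 243 and 38.2 FPKM in QpE cultures at 12 days, against 58.4, 60.9, 201, 240 and 77.2 FPKM in control cultures. The log2 difference was -0.24 ± 0.63 (SE, adjusted p = 0.842). Replicates 3 and 4 of both arms were above all of replicates 1, 2 and 5 at every time: 127 to 144 FPKM against 82.2 to 119 FPKM at 6 h, 159 to 292 FPKM against 100 to 136 FPKM at 24 h, and 201 to 243 FPKM against 38.2 to 77.2 FPKM at 12 days. Of the 35 genes, Gsta4 was the only one ordered in this way at all 3 times. At 12 days 11 genes had replicates 3 and 4 above the others (Ces1a, Ces1f, Ces1g, Cyp2c55, Cyp2f2, Cyp4v3, Gsta1, Gsta4, Gstm1, Gstm2 and Gstp1), 2 had them below (Ces1d and Gstz1), and 22 overlapped. The share of all tested rows ordered in this way was not computed. Since these replicates stood apart over all tested genes at 12 days, the counts are not particular to these enzymes.

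The Gsta4 values are sums over 2 alternative records. In 15 of 30 libraries over 90% of the level was given to the Ensembl transcripts and in 14 under 10%, with the rest on an unnamed transcript of the same locus (chr9:78182774-78209349 on the plus strand). Only 1 library lay between. Counting the Ensembl transcripts alone, the log2 difference at 12 days was -1.70 ± 1.89 and at 24 h -3.10 ± 1.54 (SE, adjusted p = 0.602 and 0.600).

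**Figure D4:**
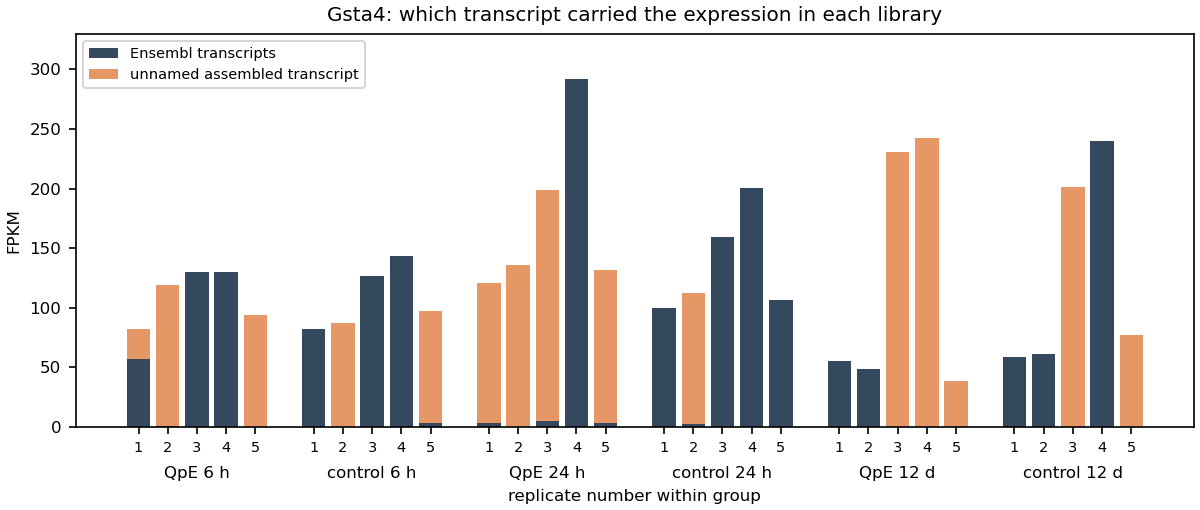
FPKM of Gsta4 in each of the 30 libraries, stacked by the record that carried it (dark, Ensembl transcripts; orange, the unnamed assembled transcript), with QpE left of control at 6 h, 24 h and 12 days. Almost every bar is 1 colour, and the bars of replicates 3 and 4 are the tallest of each group at 12 days.

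The Ugt1a genes are alternative first exons spliced to shared last exons within 1 locus on chromosome 1, so their transcripts share most of their bases. Of the 75-base runs of the Ugt1a6a transcript 97.7% recur in other genes, and for Ugt1a6b 73.2%. Both encode enzymes that glucuronidate flat phenols. Ugt1a6b had 60.3, 40.8, 61.7, 93.8 and 24.5 FPKM in QpE cultures at 12 days, against 34.6, 47.1, 83.9, 54.0 and 76.1 FPKM in control cultures, a log2 difference of -0.13 ± 0.35 (SE, adjusted p = 0.838). Ugt1a6a had 1.55, 42.2, 53.3, 0.386 and 30.3 FPKM in QpE cultures, against 0.512, 45.6, 0.334, 49.9 and 2.74 FPKM in control cultures. Within each arm it was either under 3 FPKM or above 30 FPKM, in different replicate numbers.

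The sum over the locus, added after seeing the data, was steadier. It had 83.1, 91.1, 126, 123 and 60.6 FPKM in QpE cultures at 12 days, against 93.5, 100, 114, 128 and 94.3 FPKM in control cultures (log2 difference -0.17 ± 0.19, SE, adjusted p = 0.616). Ugt1a7c averaged 5.55 ± 3.24 FPKM in QpE cultures and 12.8 ± 8.40 FPKM in controls (adjusted p = 0.156), and Ugt1a8 averaged 0.718 ± 0.362 FPKM and 0.855 ± 0.661 FPKM. At 6 h Ugt1a6a averaged 27.4 ± 15.5 FPKM in QpE cultures and 3.58 ± 5.13 FPKM in control cultures, with an unadjusted p of 0.0124 and an adjusted p of 1. The locus sum at 6 h differed by 0.08 ± 0.11 (SE, adjusted p = 1).

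Sult1a1, the phenol sulfotransferase at chr7:126672865-126676432 on the minus strand, had the largest log2 difference with QpE among the 34 at 12 days. It had 16.4, 19.3, 2.55, 2.27 and 20.97 FPKM in QpE cultures at 12 days, against 4.05, 3.12, 0.351, 0.125 and 2.50 FPKM in control cultures. QpE was higher in 5 of 5 pairs, but QpE cultures 3 and 4 lay below control cultures 1 and 2, so the arms overlapped. The log2 difference was 1.93 ± 0.67 (SE, adjusted p = 0.0888; adjusted p = 0.0160 with the block). It was 2.24 within replicates 1, 2 and 5 (adjusted p = 0.0203) and 1.47 within 3 and 4 (adjusted p = 0.0361). Without QpE culture 4 the adjusted p was 0.0484. Sult1a1 was nearly silent before 12 days, with 0.101 and 0.0764 FPKM in QpE and control cultures at 6 h and 0.275 and 0.244 FPKM at 24 h.

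The bases before the start of 3 genes are shown because 2 of them, Sult1a1 and Gstt1, had the largest difference and the only call at 12 days, and Gsta3 holds a motif the others lack. Each is the 250 bases before the RefSeq start (GRCm38.p6) on the gene's own strand, with matches to any of 5 motifs in capitals. For Gstt1 that stretch lies inside the span of its main Ensembl transcript, chr10:75783813-75798584, which starts farther upstream. Its bases are therefore not those before the start of the transcript that carried most of the Gstt1 level. They lie at chr7:126676419-126676668 (minus strand), chr10:75797732-75797981 (minus strand) and chr1:21240335-21240584 (plus strand):
Sult1a1: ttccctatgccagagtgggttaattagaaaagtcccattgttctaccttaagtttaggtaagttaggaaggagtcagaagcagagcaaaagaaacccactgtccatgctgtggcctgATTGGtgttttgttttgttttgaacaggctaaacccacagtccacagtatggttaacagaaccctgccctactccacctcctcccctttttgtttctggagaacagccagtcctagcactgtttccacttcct
Gstt1: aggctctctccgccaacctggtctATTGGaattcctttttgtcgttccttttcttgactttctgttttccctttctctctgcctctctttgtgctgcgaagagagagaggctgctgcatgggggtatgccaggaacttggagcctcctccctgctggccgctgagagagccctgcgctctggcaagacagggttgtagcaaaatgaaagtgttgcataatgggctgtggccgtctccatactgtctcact
Gsta3: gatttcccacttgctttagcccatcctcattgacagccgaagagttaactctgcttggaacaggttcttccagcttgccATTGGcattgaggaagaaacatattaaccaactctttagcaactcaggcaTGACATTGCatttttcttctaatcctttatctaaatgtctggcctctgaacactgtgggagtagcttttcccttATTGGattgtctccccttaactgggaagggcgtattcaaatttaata
The motifs were searched on both strands: the antioxidant response element core TGACNNNGC, the nuclear receptor half-site AGGTCA, the xenobiotic response element core GCGTG, the CCAAT box and the TATA box TATAAA. Sult1a1 and Gstt1 held 1 CCAAT box each and none of the other motifs, and Gsta3 held 2 CCAAT boxes and 1 antioxidant response element core. Of 34 such stretches, from 29 of the 35 genes, 2 held TGACNNNGC, against 10.2% of all 32851, and 3 held AGGTCA, against 14.02%. GCGTG was in 10 of 34, against 28.2% of all, CCAAT in 21 of 34, against 33.9%, and TATAAA in 4 of 34, against 12.4%. A match describes letters in the window and says nothing of a factor's binding.

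The control arms alone give the course without the herbicide. Comparing control cultures at 24 h with those at 6 h, 9 of the 34 genes were called higher, against 10.5% of all rows, and 2 lower, against 12%. Cyp2f2 averaged 14.8 ± 4.59 FPKM at 24 h and 6.36 ± 0.266 FPKM at 6 h (SD, n = 5 each). The log2 difference of 1.05 ± 0.18 passed the test (adjusted p = 0.00308). Ces1a averaged 1.75 ± 0.573 FPKM at 24 h and 0.238 ± 0.0930 FPKM at 6 h (log2 difference 1.13, adjusted p = 0.000936). Ces1d, Ces1g, Gstm1, Gstm2, Gstt3 and Gstz1 rose too, by 0.36 to 0.96 on the log2 scale. The ninth rise, of Ugt1a6a by 3.76 ± 0.80, is subject to the division of reads described above, while the sum over its locus rose by 0.52 ± 0.11 (adjusted p = 0.00915). Gsto1 fell to 76.3 ± 8.67 FPKM at 24 h, against 160 ± 22.2 FPKM at 6 h (log2 difference -1.05 ± 0.10, adjusted p = 0.000216), and Ces1f fell to 16.8 ± 5.01 FPKM, against 27.02 ± 5.12 FPKM (-0.69 ± 0.22, adjusted p = 0.0495). The calls of Ces1f, Ces1g, Gstm1 and Gstt3 were lost without 1 or more single libraries, with adjusted p up to 0.0959, 0.0536, 0.0579 and 0.0904 in turn, and the counts fell to 3 higher and 1 lower within replicates 1, 2 and 5 and to 4 and 1 within replicates 3 and 4. Over all 14626 rows these sets gave 572 higher and 796 lower, and 601 higher and 655 lower.

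Ces1d and Ces1f rose between 24 h and 12 days in the control cultures. Comparing control cultures at 12 days with those at 24 h, 7 genes were called higher, against 13.1% of all rows, and 6 lower, against 20.9%. Ces1d averaged 40.0 ± 15.5 FPKM at 12 days and 2.44 ± 0.305 FPKM at 24 h (SD, n = 5 each), with no overlap. The rise measured 3.48 ± 0.25 in log2 units (SE; adjusted p = 1.49e-05). Ces1f averaged 74.9 ± 16.3 FPKM and 16.8 ± 5.01 FPKM, a rise of 2.13 ± 0.23 (adjusted p = 0.000112). Cyp2f2 rose by 1.61 ± 0.45 (56.9 ± 41.7 FPKM at 12 days and 14.8 ± 4.59 FPKM at 24 h, adjusted p = 0.0199), Gsta3 by 1.59 ± 0.30, Gstz1 by 1.19 ± 0.39, Cyp2u1 by 0.73 ± 0.13 and Gsto2 by 0.49 ± 0.14. Those that fell were Cyp2c55 (-1.02 ± 0.20), Gstt1 (-0.76 ± 0.16), Cyp4f16, Gstcd and Cyp2j6 (-0.56 each) and Cyp2j9 (-0.37 ± 0.13). Gstt1 averaged 4.65 ± 1.03 FPKM at 12 days and 8.61 ± 1.72 FPKM at 24 h. The comparison of QpE with control cultures uses the same 12-day controls, and the comparisons of 24 h with 6 h and of 12 days with 24 h share the 24 h controls. The call of Gstz1 was lost without any of 8 single libraries (adjusted p 0.0640 to 0.0835) and that of Cyp2j9 without any of 9 (adjusted p 0.0582 to 0.0986). The sum over the Ugt1a locus fell by 0.41 ± 0.11 (adjusted p = 0.0152). In the same comparison 11 of 11 tested adipocyte markers were higher, with summed levels of 1880 to 8213 FPKM at 12 days and 350 to 865 FPKM at 24 h. Of 10 fibroblast and preadipocyte markers 0 were higher and 5 lower, with sums of 6245 to 7621 FPKM at 12 days and 8087 to 9355 FPKM at 24 h. The part of these markers in the enzyme values was not tested.

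**Figure D5:**
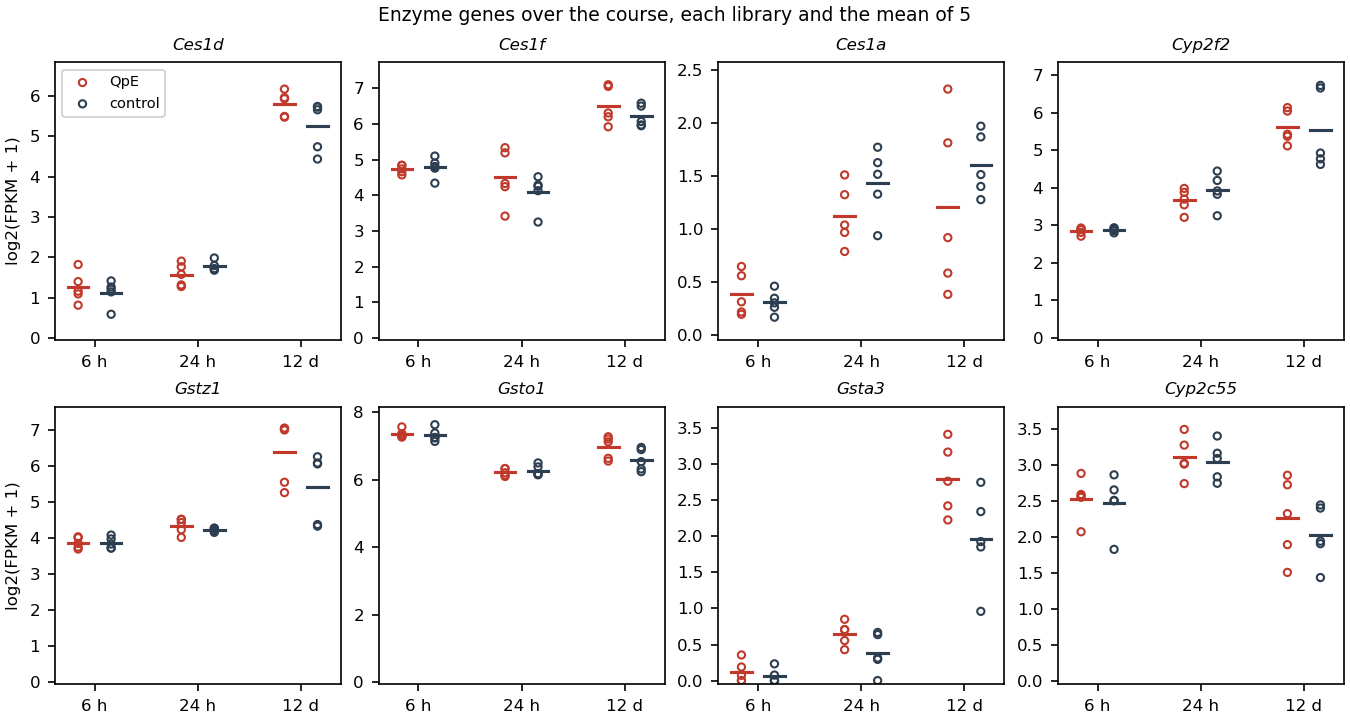
Log2(FPKM + 1) of 8 genes in each library at 6 h, 24 h and 12 days, QpE (red) left of control (dark) at each time, with a bar at the mean of 5. Ces1d and Gsta3 lie low at 6 h and 24 h and high at 12 days in both arms, Gsto1 dips at 24 h, and the arms overlap in every panel at every time.

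Whether the QpE difference at 12 days itself differed from that at 24 h was tested as an interaction. Of the 34 genes 0 were called, against 3.14% of all rows called in either direction. The difference of differences was 1.90 ± 0.63 for Sult1a1 (SE, adjusted p = 0.106) and -1.89 ± 0.58 for Ugt1a7c (adjusted p = 0.0805). Ugt1a7c and Ugt1a6a are subject to the division of reads within their locus. For the sum over the Ugt1a locus it was -0.21 ± 0.23 (SE, adjusted p = 0.707). With the replicate block within each time, 0 of the 34 genes were called lower, against 3.24% of all rows. On the higher side 4 were called, against 1.92% of all rows, namely Sult1a1 (adjusted p = 0.0152), Ces1d (adjusted p = 0.0425), Gsto1 (adjusted p = 0.0443) and Gstz1. At 24 h the replicate numbers had not met the rule for pairing the arms, yet this fit used them as a block there too. It also left out the weights per group, so its calls cannot be put down to the block alone.

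Around these enzymes, 7 lists of genes of the same pathways held 131 genes, 93 of them tested, of which 9 were higher, against 5.06% of all rows, and 10 lower, against 7.17%, with QpE at 12 days. The P450 reductase Por rose: it had 166, 182, 246, 197 and 257 FPKM in QpE cultures, against 134, 136, 141, 123 and 159 FPKM in control cultures (log2 difference 0.58 ± 0.14, SE, adjusted p = 0.0247). In that list of electron donors and other P450 genes 1 of 10 tested was higher and 0 lower. Among 15 tested ester and lipid hydrolases outside the Ces family 3 were higher and 1 lower. Pnpla2, the triglyceride lipase that starts lipolysis, averaged 716 ± 275 FPKM in QpE cultures and 269 ± 154 FPKM in controls (1.54 ± 0.45, adjusted p = 0.0499), and Abhd6, a monoacylglycerol lipase, averaged 21.4 ± 5.51 FPKM and 9.32 ± 1.71 FPKM (1.09 ± 0.18, adjusted p = 0.0115). Among 21 tested oxidoreductases 3 were higher and 2 lower: the carbonyl reductase Cbr1 rose by 1.14 ± 0.24 and the aldehyde dehydrogenase Aldh3a1 fell by 1.37 ± 0.33, to 4.88 ± 3.02 FPKM in QpE cultures, against 12.8 ± 2.18 FPKM in controls.

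Of 18 tested genes for glutathione supply and membrane transferases 1 was higher and 1 lower, namely Mgst3, a microsomal transferase, and Gpx7, a peroxidase of the endoplasmic reticulum, which fell by 0.95 ± 0.24. Of 14 tested genes for cofactor supply and other transferases 1 was higher and 4 lower, among them Ugcg, which glucosylates ceramide and fell by 1.10 ± 0.29. Of 7 tested transporters 0 were higher and 1 lower. Of 8 tested receptors and sensors 0 were higher and 1 lower: Ahr, the dioxin receptor, had 1.01, 0.903, 1.49, 1.93 and 0.520 FPKM in QpE cultures, against 2.74, 2.58, 3.66, 3.42 and 3.26 FPKM in control cultures (-0.96 ± 0.18, adjusted p = 0.0144). Nfe2l2, the factor behind the antioxidant response, averaged 39.9 ± 12.6 FPKM in QpE cultures and 40.0 ± 4.87 FPKM in controls. Nr1i3 and Ppara, nuclear receptors for xenobiotics and fatty acids, averaged 1.70 ± 0.515 and 1.41 ± 0.415 FPKM in QpE cultures, against 1.18 ± 0.166 and 1.00 ± 0.0517 FPKM in controls, and were not called. Nr1i2, the pregnane X receptor, reached at most 0.0366 FPKM in any library and was not tested.

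Cell type markers moved with QpE at 12 days beside these values. Of 10 tested fibroblast and preadipocyte markers 0 were higher and 6 lower, with summed levels of 708 to 3090 FPKM in QpE cultures, against 6245 to 7621 FPKM in control cultures. Of 11 tested adipocyte markers 1, Pparg, was higher, with sums of 4602 to 11217 FPKM in QpE cultures, against 1880 to 8213 FPKM in control cultures. The part of these shifts in the enzyme values was not tested, and in bulk RNA fewer cells of a type and less RNA per cell cannot be told apart. Hepatocyte markers, of which Tat and Cps1 were at 0 in all libraries, summed to at most 1.25 FPKM in any library. Macrophage markers summed to at most 5.35 FPKM, with Tyrobp at 0, endothelial markers to at most 0.668 FPKM, and epithelial markers to at most 5.87 FPKM, with Epcam at 0.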

How the data were processed

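The authors deposited FPKM per transcript in 1 table of 150146 transcripts, 16259 of them unnamed assembled transcripts. Per the submitters' processing notes, the tools included HISAT, HISAT2 and StringTie and the build was GRCm38. Their versions, their settings and any use of strand in assembly were not given in the sources used here. In 10 deposited columns 11 FPKM values lay just below 0 (lowest -7e-05) and were set to 0. Low values gave whole reads for only 54.8% to 68.2% of entries per library, so no count test was run and depth is approximate.

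Transcripts were summed per gene, and 10567 unnamed ones were joined to the only named gene of their locus. Pseudogenes (9) were left out. Rows at 1 FPKM or more in at least 5 of 30 libraries (14626) were compared as log2(FPKM + 1) with limma 3.58.1 (R 4.3.3; moderated test with trend, two-sided, Benjamini-Hochberg adjusted p under 0.05), using the 2 groups compared, or 4 groups with group-wise weights for the interaction. The interaction with the replicate block was fitted without weights. A fold change on the log2(FPKM + 1) scale understates that of low genes. Tables and figures used Python 3.11.15, pandas 2.3.3 and matplotlib 3.10.9. The scripts were tested on simulated data.

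The members and lists were chosen with earlier results of these data known. Genes given in full were those called at 12 days and the 10 highest by largest group mean. Those called at 12 days only with the block were added after their values were seen. Other genes at 1 FPKM or more got means. From the pathway lists came the 3 largest rises and falls with a group mean of at least 5 FPKM, plus 6 set genes. Numbers were taken to pair cultures where every same-number correlation of deviations exceeded 0.1. This held at 12 days (0.157 to 0.381), where 3 of 5 QpE and 3 of 5 control cultures matched their own number best. It missed at 6 h by 1 pair (0.0431; the other 4 were 0.134 to 0.196, each matching its own number best in both arms) and at 24 h by 4 (0.0381 to 0.0652). The labels state no pairing, so it comes from the data. At 12 days replicates 3 and 4 stood apart in both arms, which by itself can raise same-number correlations. The rule therefore cannot tell pairing by number from membership of a replicate set. Alternatives were a pseudocount of 0.1, no filter, a filter of 5 FPKM, all libraries in 1 fit, weights per group, the replicate block, TPM and median-ratio scaling, named or most abundant transcripts only, each replicate set alone and each library left out.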

Additional observations from a re-analysis of the deposited data

Results flagged for a closer look

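In 3 of 90 groups of 5 cultures, 1 culture lay far from the others. Its gap was above 0.71 of the group's range, both taken on the log2(FPKM + 1) scale. Chance alone gives this in about 1 in 20 groups. Cyp4f13 had 7.83 FPKM in control culture 2 at 12 days, a gap of 0.789 of the range. Ugt1a6b had 5.65 FPKM in control culture 4 at 6 h (0.917 of the range) and 21.2 FPKM in control culture 4 at 24 h (0.751). The causes were not tested.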

How the results depend on the processing

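Counts are of the 34 tested genes. An earlier fit of all 30 libraries with 1 shared spread made many false calls at 12 days in simulated data. That fit is therefore an alternative only. For QpE at 12 days, 0 were called higher, but 4 with all 30 libraries in 1 fit, 2 with weights per group, 5 with the replicate block, 2 within replicates 1, 2 and 5, 4 within replicates 3 and 4, and 0 to 1 with single libraries left out. Over all 14626 rows these settings called 1742, 1010, 1283, 102 and 617 higher in turn, against 740 in the main fit. With single libraries left out, 330 to 659 of all rows were called higher. The 1 called lower became 2 with TPM scaling, 6 with all 30 libraries in 1 fit, 2 with weights per group, 2 with the block, and 0 with the most abundant transcript only, without a filter or within replicates 1, 2 and 5. Leaving out single libraries gave 0 to 2. Among all rows the same settings called 1327, 2081, 1392, 1500, 284 (of 14276), 473 (of 36063) and 50 lower in turn, against 1049 in the main fit. With single libraries left out, 473 to 1030 of all rows were called lower. The interaction, with 0 called, gave 4 higher with the block and no weights, and 1 lower with all 30 libraries in 1 fit and no weights. For all rows these gave 281 higher and 471 lower, against 132 higher and 327 lower in the main fit. The interaction gave 0 to 1 higher with single libraries left out, against 59 to 176 of all rows. For control cultures at 12 days against 24 h, the 7 higher became 4 with the 5 FPKM filter, which tests fewer genes, and the 6 lower became 2 with the most abundant transcript only and 2 within replicates 3 and 4. Of all rows, the filter called 1662 of 10261 higher, against 1919 of 14626 in the main fit. The last 2 settings called 1541 of 14276 and 1491 of 14626 lower, against 3056 of 14626. At 24 h against 6 h, where replicate numbers did not pair the samples, the 9 higher became 5 without a filter, 3 within replicates 1, 2 and 5 and 4 within replicates 3 and 4. Of all rows, these settings called 1085 (of 36063), 572 and 601 higher in turn, against 1531 in the main fit. The 2 lower became 1 with all 30 libraries in 1 fit, the most abundant transcript only, named transcripts only, no filter, a pseudocount of 0.1, the replicate block and within either set, and 1 to 2 with single libraries left out. Among all rows these called 1308, 824 (of 14276), 1236 (of 12752), 1371 (of 36063), 1757, 1431, 796 and 655 lower in turn, against 1759 in the main fit. With single libraries left out, 1382 to 1676 of all rows were lower.

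Some log2 differences with QpE at 12 days changed sign. Cyp2f2 was -0.60 within replicates 3 and 4, which passed the threshold (adjusted p = 0.0368); the other sign changes did not. Cyp2f2 was also -0.0042 with TPM scaling and -0.15 to 0.37 with single libraries left out. Within replicates 3 and 4, Gsta4 was 0.11 and Ugt1a6b 0.17. With the most abundant transcript only, Gstm1 was 0.43 and Gstz1 -0.12. Leaving out single libraries gave -0.59 to 0.066 for Gsta4, -0.0098 to 0.17 for Gstp1 and -0.35 to 0.12 for Ugt1a6b. The causes were not tested. Depth limits genes under about 1 FPKM most.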
